A study of Saccharomyces cerevisiae and Saccharomyces mikatae and Saccharomyces paradoxus with 13 samples.

Results

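The response to mating pheromone that Saccharomyces cerevisiae, S. paradoxus and S. mikatae had in common was taken from the 10 alpha factor arrays among the 13 arrays studied. An open reading frame (ORF) was tested when it had at least 2 values in each species. Its 3 species means were averaged with equal weight and the average was tested against 0. Of 6132 probes, 4084 met this condition and 2048 did not. A response was called shared when the average passed an adjusted p of 0.05 and the 3 species means had one sign, and its common size was then the species mean nearest to 0.

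The treated cells were a-type haploids grown in YPD at 30 °C and sampled 60 min after addition of 6 µM alpha factor, and each array set them against untreated cells of the same species. There were 3 arrays of S. cerevisiae BY4741, 3 of an a-type haploid made from S. paradoxus CBS432 and 4 of an a-type haploid made from S. mikatae IFO 1815. Each species is therefore represented by a single strain. The other 3 arrays set BY4741 and BY4742 cells that had mated on a filter for 90 min against the same strains left unmixed. Both of these S. cerevisiae strains lack HIS3, LEU2 and URA3, and these genes are not described.

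All values are log2 ratios of treated over untreated cells on cDNA arrays built from S. cerevisiae, centred on the median of each array. A change is thus relative to the bulk of the probes on that array. The direction is likely rather than certain, because the channel labels and the labelling protocol give the treated sample different dyes. It rests on the order of the channels and on the known mating genes lying above 0, and with the sign turned every rise below would be a fall. An S. cerevisiae array held values for 5678 to 5964 probes, an S. paradoxus array for 4367 to 4777 and an S. mikatae array for 4253 to 4304. Mismatch between these probes and the RNA of the other species was not measured, and precision is limited by how many arrays there are.

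Alpha factor is the peptide that alpha cells secrete and that a cells sense. It binds the receptor Ste2, which releases a G protein and starts a MAP kinase cascade ending at the transcription factor Ste12. Known outcomes are arrest in G1, a projection towards the partner, and genes for cell adhesion, cell fusion and fusion of the nuclei.

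The average was called in 2628 ORFs (64.3% of those tested), 1315 of them higher (32.2%) and 1313 lower (32.1%). Just inside the threshold were IES5 at 0.26 and ACF2 at −0.13, and just outside it YDR444W at 0.31 and SHB17 at −0.13. With a call so common, the sizes and the order of the genes carry more than the call itself. All 3 species means had one sign in 1081 called ORFs on the higher side (26.5%) and 1131 on the lower side (27.7%), while 416 called ORFs had species means of mixed sign. Counts of shared list members below are to be read beside these shares of 26.5% and 27.7%. Most shared changes were small: the median of the smallest species mean was 0.16 among shared higher ORFs and −0.19 among shared lower ORFs. Only 22 ORFs rose by at least 1 in every species mean (0.539%), and 20 fell by at least 1 (0.49%).

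A stricter reading asks each species to pass its own test. By that reading 319 ORFs were higher (7.81%) and 408 were lower (9.99%) in all 3 species, 727 together. This count was 457 when S. cerevisiae replicate 3 was left out. In single species 658 to 986 ORFs were called higher (16.1% in S. cerevisiae, 24.1% in S. paradoxus and 23.2% in S. mikatae). Called lower were 760 in S. cerevisiae (18.6%), 1012 in S. paradoxus (24.8%) and 1014 in S. mikatae (24.8%). The species mean nearest to 0 was that of S. cerevisiae for 533 of the shared higher ORFs and 553 of the shared lower ORFs, more often than that of S. paradoxus (277 and 254) or S. mikatae (271 and 324).

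The largest common change was in FIG1, a membrane protein of the mating projection that is needed for efficient cell fusion and calcium entry. FIG1 gave 4.83, 5.10 and 4.96 on the S. cerevisiae arrays, 4.98, 5.05 and 5.03 on the S. paradoxus arrays and 4.46, 4.37, 4.98 and 4.69 on the S. mikatae arrays. All 10 arrays lay far above 0 and the ranges of the 3 species overlapped or nearly met. The average was 4.87 ± 0.06 (SE), a 29.2-fold rise (limma, adjusted p = 4.78e-16), and the smallest species mean was 4.62 in S. mikatae.

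**Figure D1:**
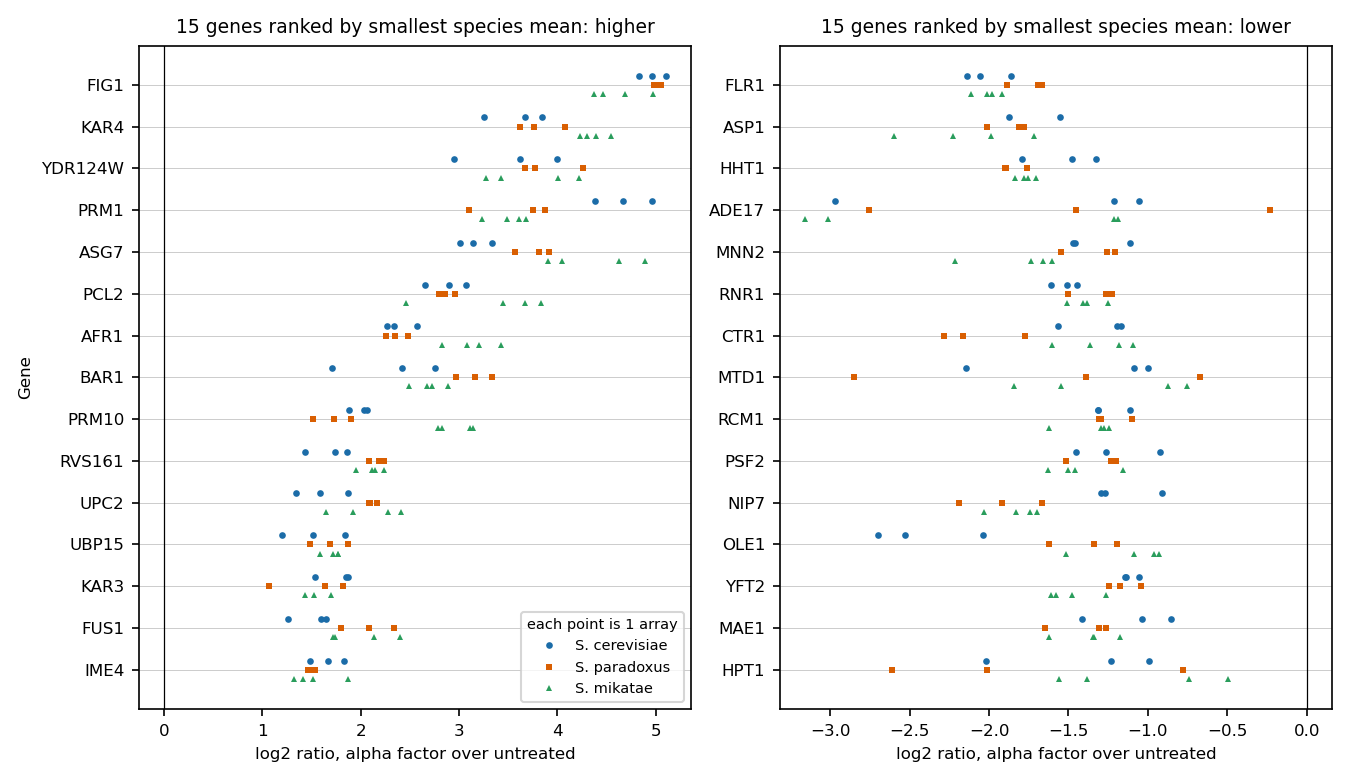
Log2 ratio of alpha factor-treated over untreated cells for the 15 highest and the 15 lowest genes by the species mean nearest to 0, among called genes with one sign on every alpha factor array. Each point is 1 array, coloured by species. FIG1 lies between 4.37 and 5.10 on all 10 arrays, whereas ADE17, MTD1 and HPT1 spread widely within each species.

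Other genes of cell fusion rose in the same way. PRM1, a membrane protein that acts when the plasma membranes merge, gave 4.67, 4.96 and 4.38 in S. cerevisiae, 3.76, 3.10 and 3.87 in S. paradoxus, and 3.61, 3.68, 3.23 and 3.49 in S. mikatae. Every S. cerevisiae array was above every array of the other 2 species, and the moderated F test among species gave an adjusted p of 0.00259. FUS1, a membrane protein of the projection tip, gave 1.26, 1.64 and 1.60 in S. cerevisiae, 2.09, 2.34 and 1.80 in S. paradoxus, and 2.13, 1.72, 2.40 and 1.73 in S. mikatae. Its 3 species means of 1.5, 2.07 and 2.0 did not differ by that test (adjusted p = 0.0632). RVS161, which shapes membranes in endocytosis and cell fusion, averaged 1.99 ± 0.05 with a smallest species mean of 1.68, and FUS2, its partner in fusion, averaged 1.79 ± 0.08 with a smallest mean of 1.09 in S. mikatae. Of 12 tested genes of adhesion and cell fusion, 9 were shared higher and none was lower (median average 1.09, against 0.0016 over all ORFs tested), and 6 were higher in each species. KEL1, CHS6 and FPS1 did not pass the test.

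AGA1, the cell wall anchor of the a-agglutinin by which mating cells stick together, was shared only in name. It gave 3.25, 3.8 and 3.97 in S. cerevisiae, 3.74, 4.06 and 3.65 in S. paradoxus, but 0.58, −0.12, −0.18 and 0.39 in S. mikatae. The S. mikatae arrays did not overlap with the others, and their mean of 0.17 ± 0.37 (SD, n = 4) did not differ from 0 (limma, adjusted p = 0.353). The average of 2.55 was called because the other 2 species carried it, which the species mean nearest to 0 makes plain.

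Among the transcription factors, KAR4, which activates genes of nuclear fusion, rose most. KAR4 gave 3.26, 3.84 and 3.67 in S. cerevisiae, 3.62, 4.07 and 3.76 in S. paradoxus, and 4.39, 4.23, 4.55 and 4.30 in S. mikatae. The S. mikatae arrays lay above all others (F test adjusted p = 0.00482), and the average was 3.92 ± 0.06, a 15.2-fold rise. STE12, the factor at the end of the cascade, rose by a modest 0.56 ± 0.05 with species means of 0.58, 0.47 and 0.63 for S. cerevisiae, S. paradoxus and S. mikatae. DIG2, an inhibitor of Ste12, averaged 0.84 ± 0.05 and was higher in each species. DIG1, MCM1 and TEC1 were not tested. TEC1 had no value in S. paradoxus, but averaged 1.68 ± 0.17 in S. cerevisiae (SD, n = 3) and 1.33 ± 0.11 in S. mikatae (SD, n = 4).

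Of the 15 core signalling genes, 7 were shared higher (46.7%) and 2 shared lower. The receptor gene STE2 gave 0.84, 1.27 and 1.20 in S. cerevisiae, 1.76, 1.96 and 1.71 in S. paradoxus, and 1.85, 2.16, 1.84 and 2.02 in S. mikatae. All S. cerevisiae arrays were below those of the other species (F test adjusted p = 0.00122), and the average was 1.63 ± 0.06. FUS3, the MAP kinase of the mating pathway, had the opposite order, with 2.06 ± 0.19 in S. cerevisiae, 1.45 ± 0.18 in S. paradoxus (SD, n = 3 each) and 1.19 ± 0.10 in S. mikatae (SD, n = 4; F test adjusted p = 0.000416). FAR1, which holds the cell cycle in G1 and guides the projection, gave 2.04, 1.85 and 1.68 in S. cerevisiae, 1.69, 1.66 and 1.42 in S. paradoxus, and a scattered 1.21, 0.48, 0.92 and 0.07 in S. mikatae. Its S. mikatae arrays were all below those of the other species (F test adjusted p = 0.00494), and the average was 1.37 ± 0.09. GPA1, the G alpha subunit, averaged 1.15 ± 0.05 and was higher in each species. KSS1, the second MAP kinase, differed more, with means of 0.73 in S. cerevisiae, 0.03 in S. paradoxus and 1.63 in S. mikatae (F test adjusted p = 1.51e-05). STE50 and STE11 averaged 0.15 each. The G protein subunit genes STE4 and STE18 had species means of mixed sign, and STE5, STE7, STE20 and CDC24 did not pass the test. CDC42 and BEM1, which set polarity, averaged −0.29 and −0.18.

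Several genes that damp the signal also rose. BAR1, the secreted protease that degrades alpha factor, gave 1.70, 2.76 and 2.42 in S. cerevisiae, 2.96, 3.34 and 3.16 in S. paradoxus, and 2.72, 2.89, 2.67 and 2.49 in S. mikatae. All S. paradoxus arrays were above the rest (F test adjusted p = 0.0245). SST2, which speeds GTP hydrolysis by the G alpha subunit, gave 1.72, 1.61 and 1.58 in S. cerevisiae, 1.56, 1.62 and 1.59 in S. paradoxus, and 1.45, 1.34, 1.67 and 1.41 in S. mikatae. AFR1, which regulates receptor signalling and shapes the projection, averaged 2.63 ± 0.06, and the phosphatase gene MSG5 averaged 0.60 ± 0.04. Of 9 tested negative regulators, these 4 were higher in each species. PTP3, YCK2 and MPT5 were shared lower with averages of −0.16, −0.19 and −0.22, none of them called in all 3 species.

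The 4 tested a-specific genes were all shared higher and called in each species. ASG7, which acts on the G beta subunit, gave 3.0, 3.34 and 3.14 in S. cerevisiae, 3.57, 3.92 and 3.81 in S. paradoxus, and 4.04, 4.89, 4.63 and 3.91 in S. mikatae. The 3 species formed separate steps apart from 1 S. mikatae array that lay just under the highest S. paradoxus array. STE6, the exporter of a-factor, averaged 1.13 ± 0.06 with the smallest mean of 0.66 in S. cerevisiae. Genes that process a-factor moved less. RAM1, a farnesyltransferase subunit, had means of 1.32 in S. paradoxus and 1.07 in S. mikatae but 0.07 in S. cerevisiae (F test adjusted p = 5.7e-06), and RAM2 and STE24 averaged 0.27 and 0.40 and were higher in each species. Of the alpha-specific genes tested, STE3, for the a-factor receptor, and MF(ALPHA)2, for alpha factor, were shared higher with averages of 0.32 ± 0.04 and 0.19. Neither was called higher in each species. SAG1, for the alpha agglutinin, was called at 0.19 with species means of mixed sign. These are changes within one culture and not levels of the genes.

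Many of the best known mating genes could not enter the test. Of 80 genes in the lists for signalling, a-factor, fusion and karyogamy, 59 were tested. Of these 59, 37 were shared higher and 10 shared lower, where 26.5% and 27.7% of all ORFs tested were. A further 2 were called with mixed signs and 10 were not called. The other 21 of the 80 genes lacked values, 20 of them with fewer than 2 values in S. mikatae. Of these 21, 15 had at least 2 values in both S. cerevisiae and S. paradoxus, and in 10 both species means were above 1. PRM3 averaged 3.86 in S. cerevisiae and 2.14 in S. paradoxus, FIG2 averaged 3.37 and 2.82, and AGA2 averaged 3.16 and 2.53. KAR5 averaged 2.77 and 2.89, and the a-factor genes MFA1 and MFA2 averaged 1.53 and 1.79 and then 1.08 and 1.30. These genes are therefore not counted among the shared ones, whatever S. mikatae did.

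Nuclear fusion genes did not all move in one direction. KAR3, a kinesin that draws the nuclei together, gave 1.85, 1.53 and 1.87 in S. cerevisiae, 1.82, 1.63 and 1.07 in S. paradoxus, and 1.70, 1.52 and 1.43 on the 3 S. mikatae arrays with a value. Its species ranges overlapped and its average was 1.60 ± 0.07. JEM1, a chaperone of the endoplasmic reticulum needed for the nuclear membranes to fuse, fell instead, at −0.81, −1.37 and −1.24 in S. cerevisiae, −1.05, −1.22 and −1.12 in S. paradoxus, and −1.22, −0.79, −1.09 and −0.91 in S. mikatae. No JEM1 array was above 0, the species overlapped, and the average was −1.09 ± 0.06 (adjusted p = 2.43e-09). In the list, 6 of 11 tested members were shared higher (54.5%, against 26.5% over all ORFs tested) and 4 shared lower (36.4%, against 27.7%). In each species 2 members were higher and only 1, JEM1, was lower. A similar exception stood among genes named for their regulation by pheromone. PRM7 fell in each species, by 1.17 in S. cerevisiae, 1.90 in S. paradoxus and 0.36 in S. mikatae on the log2 scale, while PRM6 and PRM10 averaged 1.34 ± 0.08 and 2.22 ± 0.05.

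Several of the strongest shared rises lay outside the mating lists. PCL2, a cyclin of the kinase Pho85 that is active in G1, gave 2.90, 3.07 and 2.66 in S. cerevisiae, 2.86, 2.96 and 2.80 in S. paradoxus, and 3.67, 2.46, 3.83 and 3.45 in S. mikatae. YDR124W, an ORF with no gene name in the reference table, averaged 3.72 ± 0.13 and ranged from 2.95 to 4.0 in S. cerevisiae, 3.67 to 4.26 in S. paradoxus and 3.28 to 4.22 in S. mikatae. Both genes overlapped between species. UPC2, a transcription factor for sterol uptake and synthesis, averaged 1.93 ± 0.07, and UBP15, a ubiquitin protease, averaged 1.64 ± 0.06. IME4, an RNA methyltransferase known from meiosis, averaged 1.56 ± 0.05 with species means of 1.66, 1.49 and 1.53. The reference annotation places the antisense gene RME2 over IME4, and the ORF YJL107C overlaps PRM10, so the source of signal at these probes cannot be told apart by cDNA arrays. Of 17 tested genes of the meiosis list, 6 were shared higher (35.3%, against 26.5% over all ORFs tested) and 2 shared lower (11.8%, against 27.7%). In each species 2 were higher and 1 was lower.

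Genes of the G1 to S transition and of DNA replication fell in part. RNR1, the large subunit of ribonucleotide reductase, gave −1.51, −1.44 and −1.61 in S. cerevisiae, −1.26, −1.50 and −1.23 in S. paradoxus, and −1.25, −1.38, −1.51 and −1.41 in S. mikatae. Its arrays overlapped across species, the average was −1.41 ± 0.04, a 2.66-fold fall (adjusted p = 8.91e-12), and the smallest mean was −1.33. PSF2, a subunit of the GINS replication complex, averaged −1.32 ± 0.06, and CDC21, which makes thymidylate, averaged −0.74 ± 0.06. The other GINS subunit genes PSF1, PSF3 and SLD5 did not pass the test, and PSF1 averaged 0.03. Of 26 tested genes of DNA synthesis, 11 were shared lower (42.3%) and 4 shared higher (15.4%). RNR2 and RNR4, the small subunit genes, averaged 0.33 and 0.32 and were higher in each species. In bulk RNA a smaller number of cells in S phase and less RNA per cell cannot be told apart.

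Some histone and cohesin genes fell as well. HHT1, a gene for histone H3, gave −1.33, −1.79 and −1.48 in S. cerevisiae, −1.90, −1.90 and −1.76 in S. paradoxus, and −1.78, −1.70, −1.83 and −1.76 in S. mikatae. HTB1, for histone H2B, had a mean of −0.88 ± 0.14 in S. mikatae (SD, n = 4) but −0.28 ± 0.22 in S. paradoxus and −0.19 ± 0.04 in S. cerevisiae (SD, n = 3 each; F test adjusted p = 0.00105), and HTA1 averaged −0.03. The probes of the paired genes HTB2 and HTA2 read −2.57 and −2.81 in S. cerevisiae, where HTB1 and HTA1 read −0.19 and −0.02, and were not tested for lack of values in the other species. How far the probe of HHT1 also reads its near-identical second gene HHT2 was not tested. MCD1, the cleavable cohesin subunit, averaged −0.93 ± 0.08, and PDS5, which keeps cohesin on chromosomes, averaged −0.72 ± 0.08. The other cohesin subunit genes SMC1, SMC3 and IRR1 did not pass the test.

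Cyclin genes did not move as a block. CLN3, the cyclin that starts the cycle, rose by 0.58 ± 0.05, whereas CLN1 fell by 0.92 and 0.85 in S. cerevisiae and S. paradoxus and averaged −0.19 in S. mikatae (F test adjusted p = 0.00292). CLN2 had no S. mikatae value and averaged 0.04 in S. cerevisiae and 0.02 in S. paradoxus. CLB5, a cyclin of S phase, averaged −0.55 ± 0.05 and was lower in each species. CLB2, a mitotic cyclin, averaged −0.38 ± 0.05 and had a mean of −0.06 in S. paradoxus. Of 12 genes of the mitotic list, 6 were shared lower (50%) and 2 shared higher, among them CDC20, which activates the anaphase-promoting complex, at 0.29 ± 0.04.

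The remaining genes of the 15 lowest came from transport, metabolism and RNA modification. FLR1, a multidrug transporter, gave −2.06, −2.14 and −1.86 in S. cerevisiae, −1.67, −1.89 and −1.69 in S. paradoxus, and −1.98, −1.92, −2.01 and −2.11 in S. mikatae. The S. cerevisiae arrays overlapped those of both other species, while every S. mikatae array was below every S. paradoxus array. The average was −1.92 ± 0.04, a 3.80-fold fall. ASP1, a cytosolic asparaginase, averaged −1.90 ± 0.08, from 2 S. cerevisiae arrays and all arrays of the other species. CTR1, a copper transporter, averaged −1.57 ± 0.07 and was lower in S. paradoxus (−2.07) than in S. cerevisiae and S. mikatae (−1.31 each; F test adjusted p = 0.00767). MNN2, a mannosyltransferase of the Golgi, averaged −1.50 ± 0.07, and MAE1, the mitochondrial malic enzyme, averaged −1.29 ± 0.06. RCM1, a methyltransferase of ribosomal RNA, and YFT2, a protein of lipid droplet formation, averaged −1.28 ± 0.05 and −1.25 ± 0.05.

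Lipid genes fell to different depths. OLE1, the fatty acid desaturase, gave −2.70, −2.04 and −2.53 in S. cerevisiae, −1.19, −1.62 and −1.34 in S. paradoxus, and −0.93, −1.52, −1.09 and −0.96 in S. mikatae. Every S. cerevisiae array was below all others (F test adjusted p = 0.00122). ELO3 and FAS2, which extend and build fatty acids, averaged −0.87 ± 0.07 and −0.62 ± 0.05, and the activating enzymes FAA4 and FAA3 averaged −0.78 and −0.70. In the list of fatty acid genes, 8 of 16 were shared lower (50%), 6 of them in each species, and GPT2 alone was shared higher at 0.28.

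Factors that assemble the large ribosomal subunit were nearly all shared lower. Of 50 tested members 47 were shared lower (94%) and none was shared higher, 34 were lower in each species, and the median average was −0.63. IPI3, RSA4 and SQT1 were the other members. NIP7 gave −0.91, −1.29 and −1.27 in S. cerevisiae, −1.92, −2.19 and −1.67 in S. paradoxus, and −1.70, −1.74, −1.83 and −2.03 in S. mikatae. Every S. cerevisiae array was above those of the other species (F test adjusted p = 0.00279). DBP2, an RNA helicase, averaged −1.26 ± 0.08, ERB1 averaged −1.23 ± 0.05 and CIC1 averaged −1.08 ± 0.07.

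Genes of the small subunit processome, which cuts and folds the precursor of the small subunit's RNA, fell in 33 of 42 tested members (78.6%), 20 of them in each species (median average −0.46). UTP21 was the lowest at −1.01 ± 0.05, with −0.89, −0.94 and −0.92 in S. cerevisiae, −1.27, −1.22 and −0.89 in S. paradoxus, and −0.95, −0.98, −0.99 and −1.05 in S. mikatae. UTP7 went the other way, with means of 1.02, 0.54 and 0.67 in S. cerevisiae, S. paradoxus and S. mikatae (average 0.74 ± 0.06), and UTP20 averaged 0.39 ± 0.09. The ribosomal protein genes themselves were mostly not called. Of 55 tested, 5 were shared higher (9.09%), 9 shared lower (16.4%) and 40 did not pass the test. Most ribosomal proteins have a near-identical paralog, and 134 of these genes had a probe.

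**Figure D2:**
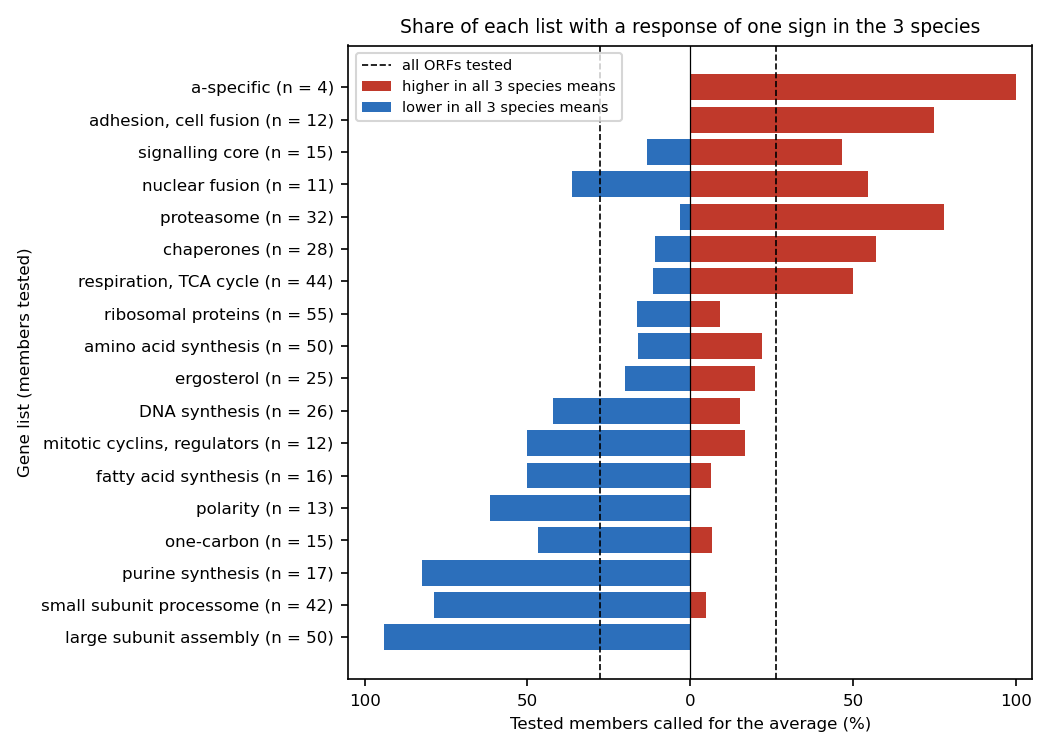
Share of tested members of 18 gene lists that were called for the average with all 3 species means higher (right, red) or lower (left, blue). Dashed lines mark the share over all ORFs tested, 26.5% higher and 27.7% lower. Large subunit assembly reaches 94% lower and the a-specific genes 100% higher.

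Proteasome genes rose. Of 32 tested members, 25 were shared higher (78.1%), 16 of them in each species, and RPN13 was the only one shared lower, at −0.44 (median average 0.50). RPN10, a ubiquitin receptor of the proteasome, gave 0.39, 0.49 and 0.59 in S. cerevisiae, 1.09, 1.21 and 0.86 in S. paradoxus, and 1.01, 1.05, 0.91 and 1.25 in S. mikatae. All S. cerevisiae arrays were below the others (F test adjusted p = 0.00412). RPN6, PRE4, RPT3 and PRE3 averaged 0.81, 0.81, 0.73 and 0.71. RPN4, the transcription factor for these genes, had means of 0.03, 0.64 and −0.16 in S. cerevisiae, S. paradoxus and S. mikatae and was not shared. The medians of the members' species means were 0.23 in S. cerevisiae, 0.59 in S. paradoxus and 0.63 in S. mikatae.

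Chaperone genes rose less evenly, with 16 of 28 shared higher (57.1%) and 3 shared lower (10.7%). STI1, a co-chaperone that links Hsp70 to Hsp90, gave 0.88, 1.02 and 0.92 in S. cerevisiae, 1.11, 1.08 and 1.10 in S. paradoxus, and 1.15, 1.40, 1.30 and 1.25 in S. mikatae. The 3 species formed steps that did not overlap, although the F test did not pass (adjusted p = 0.0751). SIS1, an Hsp40, averaged 1.06 ± 0.07, and CPR6, HSP60 and HSC82 averaged 0.83, 0.82 and 0.81. SSE2, SSZ1 and HSP42 were shared lower, at −0.50, −0.23 and −0.22. Genes of respiration and the TCA cycle were shared higher in 22 of 44 (50%) and lower in 5 (11.4%), from COX12 at −0.57 to CIT1, the mitochondrial citrate synthase, at 0.54.

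**Figure D3:**
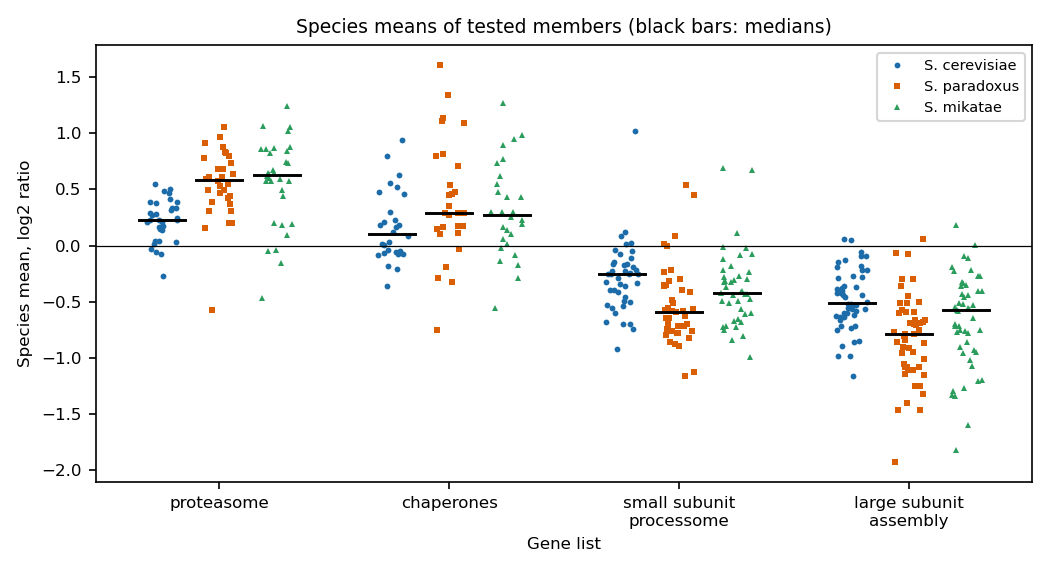
Species means of the tested members of 4 gene lists, as log2 ratios of alpha factor-treated over untreated cells. Each point is 1 gene and black bars are medians. The medians of S. cerevisiae are nearest to 0 in all 4 lists, 0.23 for the proteasome and −0.51 for large subunit assembly.

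Across all 4 lists drawn in that plot the S. cerevisiae median was the nearest to 0. For large subunit assembly the medians were −0.51 in S. cerevisiae, −0.79 in S. paradoxus and −0.58 in S. mikatae. For the small subunit processome they were −0.25, −0.59 and −0.42, and for chaperones 0.10, 0.29 and 0.28. Not every other list had this order. Respiration and TCA cycle genes had array medians of 0.22 to 0.25 in S. cerevisiae. In S. paradoxus these were −0.02 to 0.18 and in S. mikatae 0.08 to 0.25. The scale of the arrays also differed. The median absolute deviation of all values, scaled to match a normal standard deviation, was 0.273 to 0.305 per S. cerevisiae array, 0.351 to 0.385 per S. paradoxus array and 0.271 to 0.410 per S. mikatae array. The part of this scale in the list medians was not tested.

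Most genes of purine synthesis were shared lower, some of them with a wide spread between replicate arrays. ADE17, which makes IMP, gave −1.22, −1.05 and −2.97 in S. cerevisiae, −1.45, −0.23 and −2.76 in S. paradoxus, and −3.01, −1.19, −1.21 and −3.16 in S. mikatae. S. cerevisiae replicate 3, S. paradoxus replicate 3 and S. mikatae replicates 1 and 4 were low, and S. paradoxus replicate 2 was near 0. The standard deviations within a species were 1.06, 1.26 and 1.09, so its average of −1.79 carried an SE of 0.26 (adjusted p = 4.66e-05). ADE12, ADE57, ADE13 and ADE1 were low on the same arrays, and so were SHM2, MTD1 and GCV1 of one-carbon metabolism and HPT1, which salvages purine bases. ADE12 averaged −1.39 ± 0.22 and reached −2.45 on S. mikatae replicate 1, against 0.15 on S. paradoxus replicate 2.

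**Figure D4:**
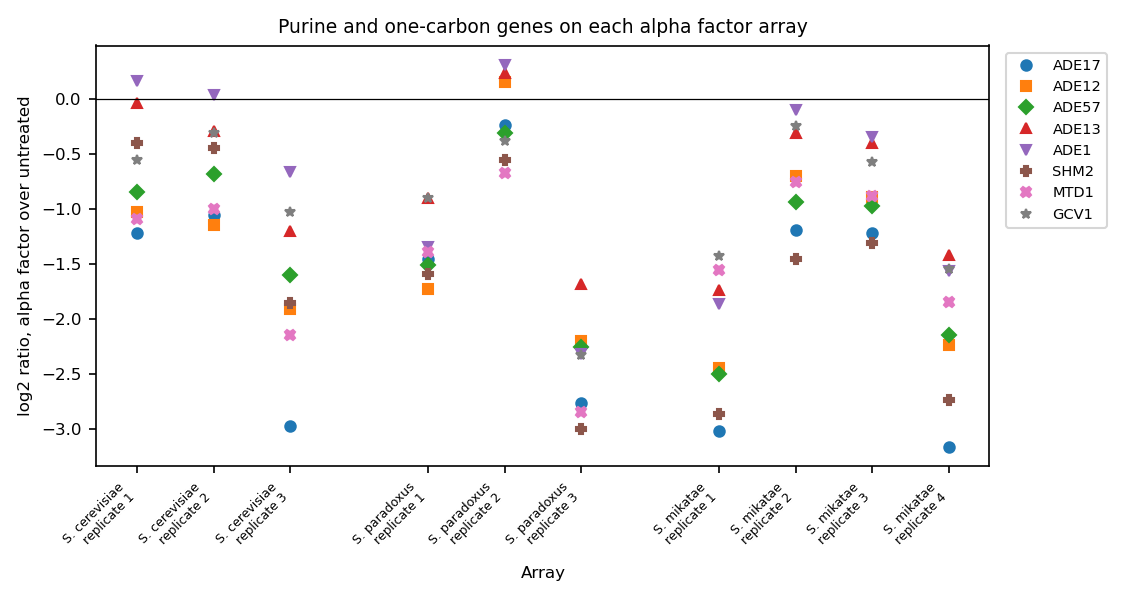
Log2 ratio of alpha factor-treated over untreated cells for 8 purine and one-carbon genes on each of the 10 alpha factor arrays. The 8 genes are shared members with the largest averages in their lists. They move together from array to array, lowest on S. cerevisiae replicate 3, S. paradoxus replicate 3 and S. mikatae replicates 1 and 4.

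In the purine list, 14 of 17 tested members were shared lower (82.4%) and none higher (median average −0.45), 7 of them in each species, and the F test among species passed for none. In the one-carbon list 7 of 15 were shared lower (46.7%), led by SHM2 at −1.57 ± 0.23 and MTD1 at −1.43 ± 0.18. Not all purine genes followed. Over the 17 tested members, array medians were −0.40, −0.32, −0.39 and −0.37 for S. mikatae replicates 1 to 4. These lacked the wide spread of the genes drawn. In S. cerevisiae and S. paradoxus the median was lowest on replicate 3, at −0.53 and −0.81. ADE6 and ADE16 averaged 0.06 and 0.10 and did not pass. What set these arrays apart was not tested, and the labels give no growth or handling difference between replicates.

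Differences in size between species were also found among shared genes. The moderated F test passed in 465 of the 2212 shared ORFs (21%), 254 higher and 211 lower, and in 978 of all 4084 ORFs (23.9%). These shares are not like for like. All ORFs include the shared ones, and the rule of one sign leaves out ORFs whose species means opposed each other. The count among shared ORFs was 300 when S. cerevisiae replicate 3 was left out and 769 with array weights. OLE1, FUS3 and NIP7, described above, are among these 465. Over all probes with a value on both arrays of a pair, tested or not, arrays of one species correlated at 0.736 to 0.899 (12 pairs). Arrays of different species correlated at 0.516 to 0.701 (33 pairs). The pairs rest on unlike sets of probes, so these ranges are a description only. The averages of the 11 reference genes lay between −0.36 and 0.40, with a median of −0.13. Of these genes 4 were shared lower (36.4%, against 27.7% over all ORFs tested), and PDA1 was higher at 0.40. ACT1, for actin, averaged 0.07 ± 0.04 and did not pass (adjusted p = 0.162), but did without S. paradoxus replicate 3 (0.11, adjusted p = 0.033) and with array weights (0.10, adjusted p = 0.0355).

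Of the 416 ORFs called with mixed signs, 42 had a species called against the average. The clearest was ELO1, an elongase of medium-chain fatty acids. ELO1 gave −0.98, −1.04 and −0.79 in S. cerevisiae and −0.83, −0.82, −0.69 and −0.47 in S. mikatae, but 2.22, 2.64 and 2.05 in S. paradoxus. The S. paradoxus arrays lay on the other side of 0. The F test gave an adjusted p of 1.67e-07, which adds no support of its own, because ELO1 was picked for its opposite signs. CSS1 was higher in S. cerevisiae, at 0.79 ± 0.09, and lower in S. paradoxus and S. mikatae, at −1.21 and −1.45. HSP30, a stress protein of the plasma membrane, had means of −1.09 in S. cerevisiae, 0.64 in S. paradoxus and −0.40 in S. mikatae. IRC7, a beta-lyase of sulfur metabolism, had means of −0.39, −1.56 and 0.49 in S. cerevisiae, S. paradoxus and S. mikatae.

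The mating arrays were not used to choose the shared genes, although they entered the same fit. They hold S. cerevisiae cells of both mating types, in contact on a filter and at another time. Of 2627 ORFs tested both ways, 502 were called higher on mating (19.1%) and 531 lower (20.2%). Among the 700 shared higher ORFs measured there, 286 were higher on mating (40.9%) and 47 lower (6.71%). Among the 757 shared lower ORFs, 258 were lower on mating (34.1%) and 44 higher (5.81%).

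Larger changes were also set beside mating. Of shared higher ORFs with a smallest species mean of at least 0.5, 41 were measured on mating, 34 were higher and 1 was lower. Of shared lower ORFs of that size, 83 were measured, 31 were lower and none was higher. Within S. cerevisiae FIG1 averaged 4.97 with alpha factor and 4.97 ± 0.22 on mating (SD, n = 3), SST2 1.64 and 1.56 ± 0.16, and FUS3 2.06 and 2.32 ± 0.05. UPC2 averaged 1.60 with alpha factor in S. cerevisiae and 0.89 ± 0.16 on mating. The difference between alpha factor and mating was not tested for any gene.

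**Figure D5:**
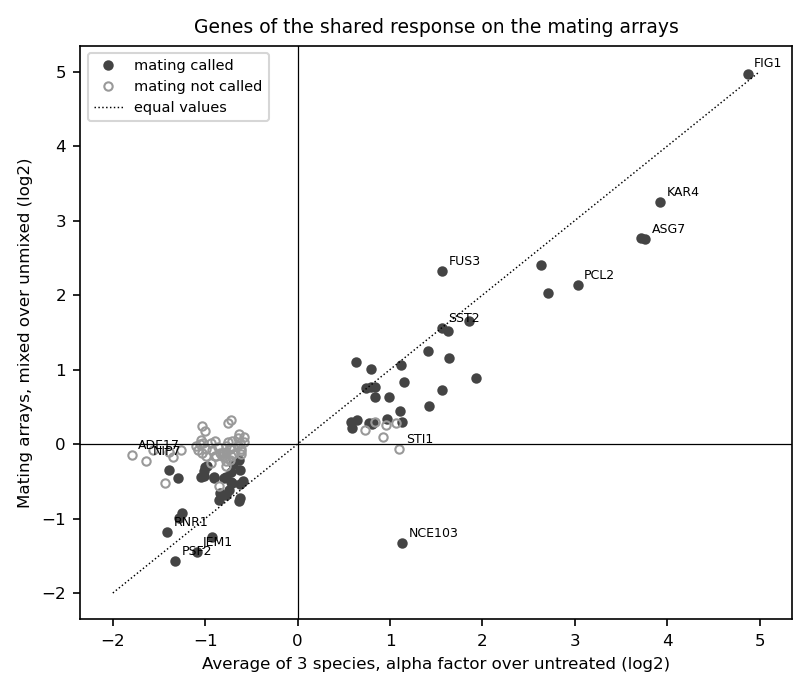
Average of the 3 species with alpha factor over untreated (horizontal) against the mean of the 3 S. cerevisiae mating arrays, mixed over unmixed (vertical), both log2, for the 124 shared ORFs with a smallest species mean of at least 0.5 and mating values. Filled points (66) were called on mating and open points (58) were not. FIG1 is near 5 on both axes, and NCE103 is the only filled point in the lower right.

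NCE103, the carbonic anhydrase, was the exception among the large rises. It rose by 0.99, 1.05 and 1.35 in S. cerevisiae, S. paradoxus and S. mikatae with alpha factor, and its mean on mating was −1.33 ± 0.27 (SD, n = 3; limma, adjusted p = 1.85e-06). It was chosen for mention after its values were seen. PSF2, RNR1 and JEM1 fell in both designs. Within S. cerevisiae PSF2 averaged −1.21 with alpha factor and −1.58 ± 0.09 on mating, RNR1 −1.52 and −1.18 ± 0.11, and JEM1 −1.14 and −1.45 ± 0.06. In the DNA synthesis list 11 of 18 measured members were lower on mating and 1 was higher.

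Since mating was measured in S. cerevisiae alone, the other lists are given beside alpha factor in that species, where 16.1% of ORFs tested were called higher and 18.6% lower. Of 33 large subunit assembly genes measured on mating, 27 were called lower and none higher with alpha factor in S. cerevisiae, and 2 were called lower and 1 higher on mating. NIP7 averaged −1.16 with alpha factor in S. cerevisiae and −0.23 ± 0.05 on mating, where it did not pass (adjusted p = 0.0835), and DBP2 averaged −0.99 and −0.07 ± 0.18. Of 14 purine genes 6 were lower with alpha factor in S. cerevisiae, and 1 was lower and 1 higher on mating. ADE17 was at −1.75 with alpha factor and at −0.15 ± 0.13 on mating. Of 22 proteasome genes 13 were higher with alpha factor in S. cerevisiae and 6 on mating, and none was lower in either. RPN10 averaged 0.49 with alpha factor in S. cerevisiae and 0.25 ± 0.13 on mating, and STI1 averaged 0.94 and −0.07 ± 0.22. Mating and alpha factor also differed in strain mix, filter and time together, and the part of each in these values cannot be told apart.

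Some shared genes are neighbours on the chromosome by the reference annotation (S. cerevisiae R64). JEM1 and PSF2 face each other and averaged −1.09 and −1.32, and MTD1 and RPF2 face each other at −1.43 and −0.73. KAR4 and PEX34 point away from each other and averaged 3.92 and 1.41, and FUS2 follows PEP5, at 1.79 and 0.70. These pairs were picked among neighbours that moved in one direction, each with a smallest species mean of at least 0.5 in size. Over 2890 adjacent pairs with both ORFs tested, 251 were both shared higher, 302 both shared lower and 311 opposite. Of all single ORFs tested, 26.5% were shared higher and 27.7% shared lower. Whether neighbours agreed more often than unrelated pairs was not tested. Probes of double-stranded cDNA do not separate the strands, so transcripts that run into a neighbour would be counted for both genes.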

How the data were processed

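Per the labels, RNA was compared on 2-colour cDNA arrays with treated cells in 1 channel and untreated or unmixed cells in the other, and arrays with the same title but another number are biological repeats. The authors deposited 1 table of log ratios with 1 value per ORF and array. How background was corrected, how arrays were normalized, which log base was used and why values are missing is not given in the sources used here, so the deposited values were read as log2 of channel 1 over channel 2. Probes were named through the S. cerevisiae R64 gene table, which matched 5651 of 6132, 43 of them after a dash was added.

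Each array was centred on its median, and all 13 arrays were fitted with a mean per group in limma 3.58.1, run in R 4.3.3 with statmod 1.5.0. The average of the 3 species means, each mean and the mating mean were tested by moderated t tests and differences among species by a moderated F test, with Benjamini-Hochberg adjustment over all ORFs tested and a threshold of 0.05. SE belongs to the average and SD to the arrays of 1 group. An ORF with fewer values has fewer arrays behind its mean. The procedure was tested on simulated data. Replicate numbers were checked for pairing: deviations from the species means correlated at −0.26 to 0.348 in 9 same-numbered pairs and at −0.341 to 0.409 in 24 further pairs, so arrays were not paired. On the arrays, 0 to 39 probes shared their value with another probe. Among ORFs tested there were 26 of them, none of which is named.

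The genes named are the 15 highest and 15 lowest by smallest species mean among called ORFs with one sign on every alpha factor array, up to 5 shared members of each list described, a fixed set of known mating and cell cycle genes, and up to 8 genes with a species called against the average. Genes outside this rule, which are untested mating genes and members that resolve small counts, were picked with their values known. The members, the lists and the tests were chosen with earlier results of these data known. Alternatives were quantile normalization, values without centring, a common median absolute deviation for all arrays, only ORFs complete on 10 arrays, at least 3 values in each species, only alpha factor arrays, equal weight per array, array weights, robust eBayes, the replicate number as a random block, an average of at least 1, and each array or species left out. Promoter sequences were not analysed here, and 1 gene is not reported here.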

Additional observations from a re-analysis of the deposited data

Results flagged for a closer look

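Of the 101 genes named by the rule, 45 had species means that differed by the moderated F test (limma, adjusted p under 0.05), and the largest minus the smallest species mean on the log2 scale is given in parentheses. Among mating genes these were KAR4 (0.78), PRM1 (1.17), ASG7 (1.21), AFR1 (0.77), BAR1 (0.86), PRM10 (1.25), RVS161 (0.49), AGA1 (3.65), STE2 (0.87), FAR1 (1.19), FUS3 (0.86), STE6 (0.77), GPA1 (0.52), KSS1 (1.61), DIG2 (0.64), MSG5 (0.38) and SEC66 (0.59). Among cell cycle genes they were CLB2 (0.58), HTB1 (0.70), PDS1 (0.73), RAD27 (0.74) and CLN1 (0.74). Among genes of ribosome assembly, chaperones and the proteasome they were NIP7 (0.77), ERB1 (0.62), CIC1 (0.88), NAN1 (0.48), SIS1 (0.97), HSP60 (0.58), HSC82 (0.86), RPN10 (0.57), RPN6 (0.96), PRE4 (0.52), RPT3 (0.59) and PRE3 (0.52). The others of these with one sign were CTR1 (0.76), OLE1 (1.30) and YFT2 (0.37). Genes mentioned outside the rule are not in that count, and RAM1, FUS2, PRM6, PRM7, STE4, STE18, STE11, RPN4, RSA4, SSE2 and PEX34 among them passed the same test. HIS3 passed as well, but S. cerevisiae BY4741 lacks this gene, so its result is not read as a response. Genes with a species called against the average were ELO1 (3.24), CSS1 (2.25), HSP30 (1.74), YOR342C (1.45), PPN2 (1.13), MVD1 (1.24), IRC7 (2.05) and IZH4 (2.17). They were picked by that call and not by the F test. The call makes a difference among their species means all but certain, so their F test adds little.

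In 95 genes the 4 S. mikatae arrays were compared, and in 5 of them 1 array lay far from the other 3. Chance alone gives such a gap in about 1 of 20 groups. The arrays were replicate 2 for RCM1 (−1.63), ELO3 (−1.59) and MSG5 (0.66), replicate 1 for ACT1 (0.23) and replicate 4 for GPA1 (0.98).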

How the results depend on the processing

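Counts were recomputed under 24 settings. With an average of at least 1 on the log2 scale required, 81 ORFs were called, 39 with all species means higher and 41 lower, 74 were called in each species, 40 of the shared ones differed among species and 23 shared higher ones were higher on mating. Array weights gave 769 shared ORFs that differed among species. Leaving out each array in turn, the average was called in 2309 to 2548 ORFs, 965 to 1059 were shared higher and 1012 to 1111 lower, 457 to 686 were called in each species, 300 to 455 shared ORFs differed among species, 257 to 289 shared higher ORFs were higher on mating, and 39 to 44 shared ORFs had a smallest mean of at least 1. The lowest values of 457 and 300 came without S. cerevisiae replicate 3, a setting with fewer arrays. Replicate numbers did not pair the arrays, and a random replicate block (consensus correlation −0.0701) gave 2723 called, 1106 shared higher and 1155 lower, and 718 called in each species.

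Signs turned when a species was left out of the average, in genes with species means of mixed sign: without S. cerevisiae HSP30 averaged 0.12 and IZH4 0.18, and without S. paradoxus ELO1 averaged −0.82, PPN2 −0.10, MVD1 −0.077 and IRC7 0.049. This alternative drops 1 of the opposing means by construction. Of 101 named genes, 4 (ELO1, PPN2, MVD1 and PCL1) lost their call under at least 1 of the other 20 alternatives and none changed sign.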
